A study of Mus musculus with 15 samples.

Results

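The core circadian clock genes Arntl, Clock, Per1, Per2, Per3, Cry2, Nr1d1, Nr1d2, Dbp and Tef were measured by RNA-seq in the distal colon of untreated and treated mice. These 10 genes were selected on their symbols with their expression in these same libraries already known. They stand among 12370 genes found in all 3 deposited count tables, and all 10 were in each table. The contrast that drew attention to them is not recorded, so their values in every comparison are a description and carry no p.

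The study compared mice without interferon regulatory factor 1 (Irf1), a transcription factor of the interferon response, with resistant wild-type mice, using a mouse model of colorectal cancer that arises from colitis. Azoxymethane (AOM), a carcinogen, is followed in that model by dextran sulfate sodium (DSS), which injures the colon epithelium. RNA from homogenized colon was depleted of ribosomal RNA and read as pairs of 50 bp. Each of 5 groups held 3 mice, all of strain C57BL/6 by their labels.

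Control set 1 was 3 untreated wild-type (B6) mice, deposited in a table with the treated B6 mice. Control set 2 was 3 other untreated B6 mice, deposited in a table with the untreated Irf1-/- mice, and the labels give no other difference between the sets. Untreated Irf1-/- mice were the only untreated group of that genotype. The D26 B6 and D26 Irf1-/- mice had AOM at 7 mg/kg on day 1 and 2% DSS from day 8 to day 11, and were killed on day 26. The study's methods give an age of 8 to 10 weeks at the start of its full model with 3 cycles of DSS, and it is assumed here that this also holds for the D26 mice. Ages of the untreated mice, the sex of the mice and the hour of the day at which colons were taken are not given in the labels or methods used here.

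The clock is a feedback loop of transcription that runs in most cells of the body. CLOCK and its partner, the product of Arntl, switch on the Per, Cry, Nr1d, Dbp and Tef genes through E-box sequences, the PER and CRY proteins then block that pair, and the Nr1d proteins repress Arntl, so that over a day Arntl transcripts are high when Dbp and Nr1d1 transcripts are low. In the intestine the loop is known to time the uptake of nutrients, gut movement, barrier genes and the renewal of the epithelium.

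Library totals lay between 22266607 and 22869853 counts with a median of 22561175. Values are CPM, counts scaled to library size, on 1 common scale from TMM over the 12370 shared genes. Within groups, the difference between any 2 mice was 8.69 to 42.9 times what counting noise gives (a chi-square over genes, per degree of freedom), so over all genes the spread between mice is wider than depth alone would give. For single members in single groups the figure went as low as 1.31, for Arntl in untreated Irf1-/- mice, and 1.46, for Per1 in control set 2. In bulk tissue, fewer cells of a type and less RNA per cell cannot be told apart.

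Irf1 itself was read in every library. Its level lay between 79.4 and 123 CPM in the 6 Irf1-/- libraries and between 128 and 227 CPM in the 9 B6 libraries, so the genotypes did not overlap. Between the treated genotypes Irf1 had a log2 fold change (log2 FC) of -0.93 with a standard error (SE) of 0.13 and an adjusted p of 0.0117 in edgeR, lower in 3 of 3 Irf1-/- libraries. Between the untreated genotypes it was -0.49 (SE 0.12, adjusted p 0.128) over control set 2 and -0.70 (SE 0.12, adjusted p 0.0102) over control set 1.

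Some D26 libraries stood apart in ways the labels do not give. Xist, the RNA that coats the inactive X chromosome in female cells, was at 25.2 and 5.97 CPM in D26 B6 mice 1 and 2 and at 11.6 CPM in D26 Irf1-/- mouse 1. In the other 12 libraries Xist lay between 321 and 3729 CPM. The 3 D26 B6 libraries also had counts that leaned toward GC-rich genes, by 0.193, 0.136 and 0.285 log2 units per 10% of GC content, against -0.124 to 0.0317 in the other 12 libraries. This lean cannot be told apart from treatment in B6 mice. Beside each D26 B6 comparison stand values with GC content corrected for some or all of the 10 members. With this correction Irf1 was at -0.83 (SE 0.13) between the treated genotypes.

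Arntl, whose product is the partner of CLOCK, was the member with the widest swing among the activators. Arntl was at 42.9, 25.9 and 24.5 CPM in control set 1, at 81.8, 63.8 and 45.2 CPM in control set 2, at 29.8, 30.3 and 27.8 CPM in untreated Irf1-/- mice, at 85.3, 75.7 and 36.6 CPM in D26 B6 mice and at 31.6, 20.01 and 22.1 CPM in D26 Irf1-/- mice. All 6 Irf1-/- libraries were therefore low, and the high values were those of control set 2 and of D26 B6 mice 1 and 2. Control set 2 did not overlap control set 1 or the untreated Irf1-/- mice, while D26 B6 mouse 3 lay within the range of control set 1. Group means of Arntl ran from 65.9 CPM in D26 B6 through 63.6 in control set 2, 31.1 in control set 1 and 29.3 in untreated Irf1-/- to 24.6 in D26 Irf1-/-. Of these neighbours, the step between the control sets alone was larger than the larger SD of the 2 groups.

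Clock, the DNA-binding partner of the Arntl product, varied least of the members. Clock was at 226, 228 and 236 CPM in control set 1, at 268, 250 and 242 CPM in control set 2, at 230, 230 and 218 CPM in untreated Irf1-/- mice, at 182, 193 and 140 CPM in D26 B6 mice and at 175, 195 and 209 CPM in D26 Irf1-/- mice. All 6 D26 libraries were below all 9 untreated libraries. Groups did not overlap for 34.5% of all genes between D26 B6 and control set 1 and for 25.1% between the Irf1-/- groups. Clock had the lowest GC content of the members, 40.9%. With GC content corrected, its log2 FC went from -0.41 (SE 0.12) to -0.16 (SE 0.09) in B6 over set 1. In Irf1-/- mice it went from -0.23 (SE 0.08) to -0.18 (SE 0.08). Control set 2 was highest at a mean of 253 CPM, ahead of control set 1 at 230 CPM, untreated Irf1-/- at 226 CPM, D26 Irf1-/- at 193 CPM and D26 B6 at 172 CPM. Neighbours in this order differed by more than the larger SD between the control sets and between untreated and D26 Irf1-/- mice, and not elsewhere.

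Per3, a member of the period family with a weaker part in the repressor complex than Per1 and Per2, had values that separated the control sets. Per3 was at 83.8, 119 and 96.2 CPM in control set 1, at 38.5, 36.6 and 48.9 CPM in control set 2, at 56.0, 72.3 and 84.7 CPM in untreated Irf1-/- mice, at 50.3, 33.5 and 70.5 CPM in D26 B6 mice and at 64.2, 102 and 101 CPM in D26 Irf1-/- mice. Control set 1 was high and control set 2 low without overlap, and the untreated Irf1-/- mice lay above set 2 and reached into the range of set 1. Means stood in the order control set 1 (99.7 CPM), D26 Irf1-/- (88.9), untreated Irf1-/- (71.0), D26 B6 (51.5) and control set 2 (41.3). Here only untreated Irf1-/- and D26 B6 were neighbours that differed by more than the larger SD.

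Per2, a core repressor and itself an E-box target, was highest in D26 Irf1-/- mouse 3 at 69.6 CPM and lowest in control set 2 mouse 2 at 18.4 CPM. Its group means were 49.7 CPM in D26 Irf1-/-, 46.5 in control set 1, 41.6 in untreated Irf1-/-, 31.8 in D26 B6 and 27.7 in control set 2. Control set 1 spanned 23.5 to 60.9 CPM and so overlapped every other group, and untreated Irf1-/- and D26 B6 alone differed as neighbours by more than the larger SD. Per1, the period gene that also answers quickly to hormones and stress, kept group means between 31.5 CPM in untreated Irf1-/- and 42.2 CPM in D26 Irf1-/-. Within D26 Irf1-/- mice Per1 alone spanned 23.0 to 63.5 CPM, and no neighbours in its order differed by more than the larger SD. Cry2, a cryptochrome that closes the repressor complex, had means of 39.5 CPM in D26 B6, 37.5 in control set 1, 33.8 in D26 Irf1-/-, 32.5 in untreated Irf1-/- and 26.1 in control set 2. For Cry2 the step from untreated Irf1-/- to control set 2 was the only one larger than the larger SD.

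Nr1d2, a nuclear receptor (REV-ERB beta) that represses Arntl, was low in control set 2 and in D26 B6. Nr1d2 was at 127, 180 and 191 CPM in control set 1, at 70.1, 87.5 and 128 CPM in control set 2, at 144, 149 and 173 CPM in untreated Irf1-/- mice, at 71.6, 62.4 and 102 CPM in D26 B6 mice and at 138, 192 and 165 CPM in D26 Irf1-/- mice. The 3 D26 B6 libraries lay below all libraries of control set 1 and of both Irf1-/- groups, and overlapped control set 2. Its order was control set 1 (166 CPM), D26 Irf1-/- (165), untreated Irf1-/- (155), control set 2 (95.1) and D26 B6 (78.6), with a step beyond the larger SD between untreated Irf1-/- and control set 2 alone. Nr1d1 (REV-ERB alpha), its close relative, was at 87.2, 115 and 116 CPM in control set 1, at 34.7, 45.2 and 89.7 CPM in control set 2, at 69.2, 84.8 and 93.4 CPM in untreated Irf1-/- mice, at 59.2, 34.4 and 97.3 CPM in D26 B6 mice and at 82.9, 86.2 and 112 CPM in D26 Irf1-/- mice. Mouse 3 of control set 2 and mouse 3 of D26 B6 were high beside the other mice of their groups, and no neighbours in the order of Nr1d1 differed by more than the larger SD.

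Dbp, a transcription factor that carries the rhythm to output genes through D-box sequences, had the widest range of the 10. Dbp was at 27.6, 78.5 and 62.6 CPM in control set 1, at 2.91, 6.71 and 18.2 CPM in control set 2, at 17.9, 30.7 and 41.1 CPM in untreated Irf1-/- mice, at 8.21, 7.04 and 44.5 CPM in D26 B6 mice and at 26.8, 50.8 and 53.5 CPM in D26 Irf1-/- mice. The lowest library, mouse 1 of control set 2, held 65 Dbp counts, and the highest, mouse 2 of control set 1, held 1783. Control set 1 lay wholly above control set 2, and D26 B6 mice 1 and 2 were at the level of control set 2 while mouse 3 was within the range of control set 1. Means ran from 56.3 CPM in control set 1 through 43.7 in D26 Irf1-/-, 29.9 in untreated Irf1-/- and 19.9 in D26 B6 to 9.26 in control set 2, and no neighbours differed by more than the larger SD.

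Tef, a relative of Dbp that binds the same D-box, was at 93.4, 179 and 139 CPM in control set 1, at 31.4, 42.2 and 73.8 CPM in control set 2, at 84.4, 100.1 and 125 CPM in untreated Irf1-/- mice, at 59.7, 39.7 and 116 CPM in D26 B6 mice and at 90.2, 142 and 151 CPM in D26 Irf1-/- mice. The groups stood in the same order as for Dbp, and again no neighbours differed by more than the larger SD. Untreated Irf1-/- mice did not overlap control set 2 and overlapped control set 1.

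**Figure D1:**
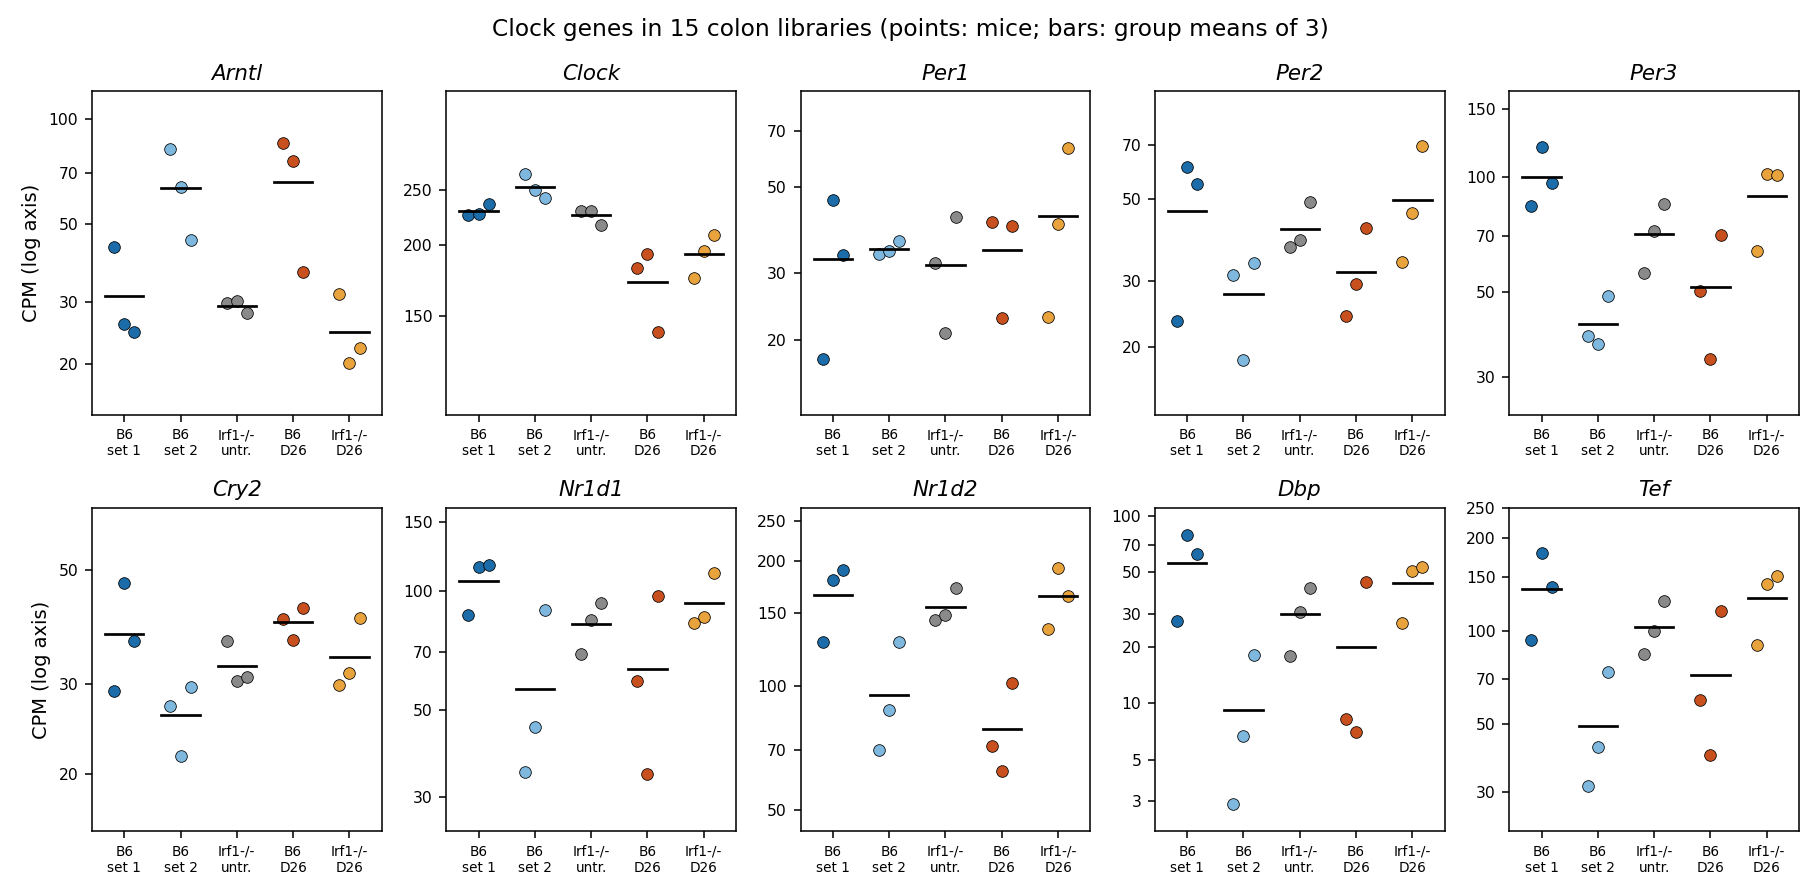
Level of each of the 10 clock genes in CPM (log axis, its own scale in each panel) in 15 libraries, with 1 point per mouse and a bar at the mean of the 3 mice of a group. Control set 2 is high for Arntl and low for Dbp, from 2.91 to 18.2 CPM, beside control set 1, from 27.6 to 78.5 CPM.

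Over the 15 libraries the highest level was 26.9 times the lowest for Dbp, 5.69 times for Tef, 4.26 for Arntl, 3.79 for Per2, 3.56 for Per3, 3.54 for Per1, 3.38 for Nr1d1, 3.08 for Nr1d2, 2.18 for Cry2 and 1.91 for Clock. The output genes and Arntl thus spread most and Clock least. Per kilobase of transcript, the median level was 31.7 CPM for Nr1d1, 29.5 for Nr1d2, 23.2 for Clock, 21.2 for Tef, 15.03 for Dbp, 11.8 for Per3, 7.91 for Cry2, 7.90 for Arntl, 7.31 for Per1 and 6.35 for Per2. These medians pool 5 groups and need not give the order within any 1 of them.

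Pearson's r of log2 CPM over 15 libraries was 0.986 for Dbp with Tef, 0.944 for Dbp with Nr1d1, 0.932 for Dbp with Per3 and -0.910 for Dbp with Arntl. With each group's mean subtracted, these became 0.966, 0.910, 0.828 and -0.932, so the relations were also present with differences between groups removed. These r pool all groups and do not give the order of mice within any 1 group. Arntl and Nr1d2 gave -0.957, and -0.927 with group means subtracted. Per1, Clock and Cry2 followed Dbp less closely, with r of 0.274, -0.270 and 0.492, or 0.518, -0.590 and 0.420 with group means subtracted. The points of each r share library, depth and scaling, and the values are a description with no p.

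**Figure D2:**
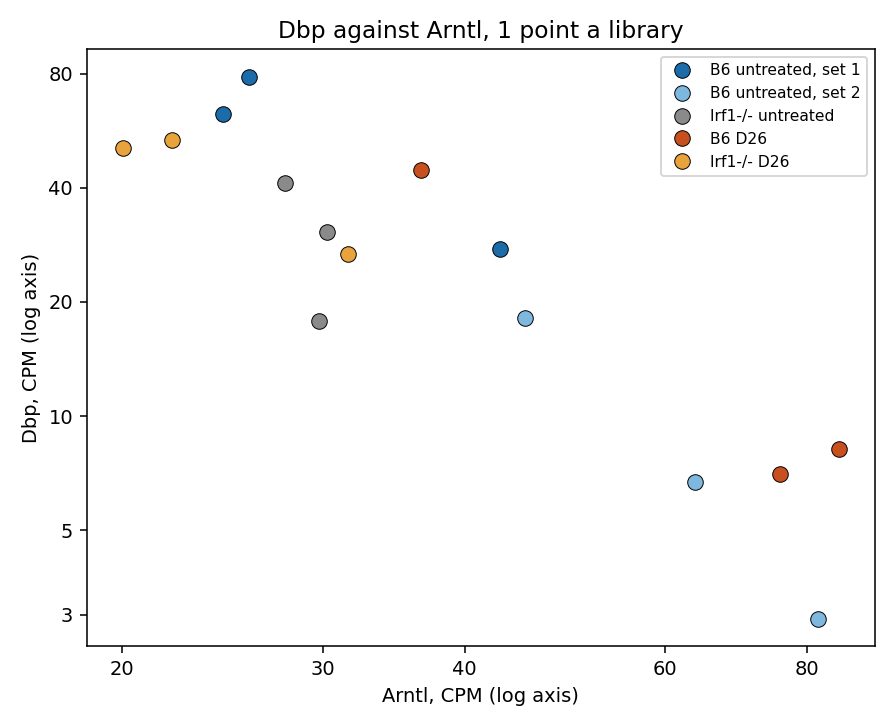
Dbp against Arntl in CPM (both axes logarithmic), 1 point per library, coloured by group. D26 B6 mice 1 and 2 and mice 1 and 2 of control set 2 lie at low Dbp and high Arntl, where Dbp is between 2.91 and 8.21 CPM.

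Among all other genes in the 3 tables, the 5 with the highest r with Dbp over 15 libraries were Ccdc116 (r 0.876), Anxa7, an annexin (0.875), Hlf (0.875), Bnip3, a mitophagy receptor of the outer mitochondrial membrane (0.859), and Vdac1, the main channel of that membrane (0.834). Hlf encodes the remaining relative of Dbp and Tef, and lay between 4.75 and 6.66 CPM in control set 2 and between 8.23 and 16.3 CPM in control set 1. With group means subtracted, these r were 0.805, 0.679, 0.759, 0.778 and 0.698, and 0 of the 5 were then among the 5 highest.

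For Arntl the 5 genes were Npas2 (r 0.938), Rnf125, a ubiquitin ligase (0.862), the predicted gene Gm8221 (0.852), Spon2, a secreted matrix protein (0.834), and Cldn8, a claudin of tight junctions (0.825). Npas2 encodes a protein that can take the place of CLOCK, and had means of 31.8 CPM in D26 B6, 28.2 in control set 2, 17.5 in untreated Irf1-/-, 16.1 in D26 Irf1-/- and 15.8 in control set 1. With group means subtracted, the r of these 5 were 0.883, 0.8002, 0.765, 0.792 and 0.768, and Npas2 alone was then still among the 5 highest.

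Log2 FC carry the SE of the edgeR quasi-likelihood fit over all genes of the tables involved. A gene is past the threshold when its fold change is 1.5 or more and its adjusted p is under 0.01. Because the 10 genes were selected with results known, the number of them past a threshold is printed beside the percent of all tested genes past it, and nothing is read from the pair. The other clock genes come from 4 lists of 45 genes (transcription loop, protein turnover and kinases, cofactors, rhythmic outputs), of which 42 were in at least 1 table and Arntl2, Nfil3 and Fbxl21 in none. These lists were also chosen with earlier results of these data known. Their genes are printed with an adjusted p over all genes, which does not allow for that choice. In each list the gene with the smallest p is named. Comparisons share samples: control set 2, control set 1, the untreated Irf1-/- mice and both D26 groups each enter more than 1 of them, so their values are set side by side and not counted as repeats.

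In untreated colon, Irf1-/- mice had less Arntl and more Tef, Per3 and Nr1d2 than control set 2 in every library, and more Dbp with groups that overlapped. The log2 FC was -1.12 for Arntl (SE 0.17), 1.69 for Dbp (SE 0.50), 1.07 for Tef (SE 0.26), 0.78 for Per3 (SE 0.15) and 0.71 for Nr1d2 (SE 0.18), with 3 mice a group. The other members had 0.59 (SE 0.20) for Per2, 0.54 (SE 0.28) for Nr1d1, 0.32 (SE 0.12) for Cry2, -0.14 (SE 0.19) for Per1 and -0.16 (SE 0.07) for Clock. With each mouse left out in turn, the values ran from -1.32 to -0.90 for Arntl, -0.20 to -0.12 for Clock, -0.40 to 0.08 for Per1, 0.36 to 0.75 for Per2, 0.64 to 0.93 for Per3 and 0.20 to 0.41 for Cry2. The remaining ranges were 0.29 to 1.04 for Nr1d1, 0.53 to 0.98 for Nr1d2, 1.26 to 2.63 for Dbp and 0.83 to 1.48 for Tef. Against control set 1 the same Irf1-/- libraries gave the other sign for 7 members, among them Dbp at -0.92 (SE 0.35), Per3 at -0.49 (SE 0.15), Tef at -0.41 (SE 0.20), Nr1d1 at -0.37 (SE 0.13) and Nr1d2 at -0.10 (SE 0.13), and left Arntl at -0.09 (SE 0.18). The direction of these members between the untreated genotypes thus turned with the control set used, and genotype and set cannot be told apart in either comparison alone.

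The median log2 FC over set 2 was 0.57 for the 10 members and 0.00 for all 12588 genes tested. No library of 1 group reached into the other for 7 members, with Per2, Per3, Cry2, Nr1d2 and Tef above and Arntl and Clock below, beside 15.4% of all genes. Past the threshold in edgeR were 0 members beside 0.405% of all genes, and 8 members had an unadjusted p under 0.05 beside 10.4%. DESeq2 put 2 members past it (Arntl and Per3) beside 0.850%, and the exact test of edgeR 4 (Arntl, Per3, Nr1d2 and Tef) beside 0.993%. Without mouse 3 of control set 2, in which Dbp, Tef and Nr1d1 were highest of that set, 3 members were past it, Arntl at -1.32, Nr1d2 at 0.98 and Tef at 1.48, beside 0.294% of all genes. With the replicate number as a block the count was 2, Per3 at 0.77 and Tef at 1.14, beside 0.350%.

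Of the other clock genes, 0 of 40 tested passed in edgeR or DESeq2, 1 (Sgk1) by the exact test, and 12 had an unadjusted p under 0.05. Beside these stand 0.405%, 0.850%, 0.993% and 10.4% of all genes, in that order. Bhlhe40, a repressor of E-box genes, had a log2 FC of 0.50 (SE 0.09, adjusted p 0.0305) and Prkaa2, a catalytic subunit of the energy sensor AMPK, one of 0.40 (SE 0.07, adjusted p 0.0325), each higher in 3 of 3 Irf1-/- libraries. Sgk1, a kinase induced by glucocorticoids, was at -1.11 (SE 0.21, adjusted p 0.0380), and Wdr5, a subunit of histone methyltransferase complexes, at -0.16 (SE 0.07, adjusted p 0.473), each lower in 3 of 3. Against control set 1, Sgk1 stood at 0.10 and Wdr5 at 0.02, with the other sign, and Bhlhe40 at 0.08 and Prkaa2 at 0.24, with groups that overlapped. Without mouse 3 of the untreated Irf1-/- group Sgk1 was at -1.43 and past the threshold.

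After AOM and DSS, B6 mice had less Nr1d2, Per3 and Clock than control set 1 in every library. The log2 FC was -1.07 for Nr1d2 (SE 0.20), -0.94 for Per3 (SE 0.24) and -0.41 for Clock (SE 0.12). Dbp at -1.49 (SE 0.64), Tef at -0.92 (SE 0.36), Nr1d1 at -0.73 (SE 0.31), Per2 at -0.54 (SE 0.32) and Arntl at 1.09 (SE 0.31) had groups that overlapped, with D26 B6 mouse 3 within the range of control set 1 for each of these members and all 3 D26 mice within it for Per2. Per1 had 0.09 (SE 0.32) and Cry2 0.08 (SE 0.16). Leaving out single mice gave 0.86 to 1.401 for Arntl, -0.50 to -0.29 for Clock, -0.19 to 0.44 for Per1, -0.85 to -0.29 for Per2, -1.25 to -0.71 for Per3 and -0.06 to 0.29 for Cry2. Further ranges were -1.18 to -0.43 for Nr1d1, -1.30 to -0.93 for Nr1d2, -2.88 to -1.08 for Dbp and -1.46 to -0.63 for Tef. The ends for Dbp are those without D26 mice 3 and 2.

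Against control set 2 the same D26 B6 libraries gave Dbp at 1.13 (SE 0.75), Tef at 0.57 (SE 0.39), Per3 at 0.33 (SE 0.23), Per2 at 0.21 (SE 0.25) and Nr1d1 at 0.19 (SE 0.39), with the other sign, and Arntl at 0.06 (SE 0.29). Clock stayed lower at -0.55 (SE 0.12), and Nr1d2 was at -0.26 (SE 0.23). Cry2 was at 0.61 (SE 0.12), with all D26 B6 libraries above all of set 2. With GC content corrected over set 2 as well, a fit added after seeing the data, Clock was at -0.28 (SE 0.10), Cry2 at 0.44 (SE 0.11), Dbp at 0.87 (SE 0.75) and Nr1d2 at -0.02 (SE 0.26). In that fit Nr1d1 turned to -0.01 (SE 0.38), and Per1 went from 0.01 (SE 0.19) to -0.22 (SE 0.18). Per2 was at 0.06 (SE 0.24), Per3 at 0.22 (SE 0.22) and Tef at 0.44 (SE 0.38).

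Over control set 1 with GC content corrected, Clock was at -0.16 (SE 0.09), Nr1d2 at -0.83 (SE 0.22) and Dbp at -1.73 (SE 0.63), and Cry2 and Per1 took the other sign at -0.06 (SE 0.15) and -0.11 (SE 0.31). Without the libraries low in Xist, a choice made after seeing the data that leaves D26 B6 mouse 3 alone, assumed to vary like the other groups, Dbp over control set 1 was at -0.32 (SE 0.42), Tef at -0.22 (SE 0.27), Arntl at 0.25 (SE 0.27), Nr1d2 at -0.69 (SE 0.20) and Clock at -0.70 (SE 0.10). Per3 was then at -0.48 (SE 0.17), Nr1d1 at -0.11 (SE 0.16), Per2 at -0.14 (SE 0.40), Per1 at 0.30 (SE 0.38) and Cry2 at 0.18 (SE 0.22). Whether the part of D26 B6 mice 1 and 2 in these values goes with Xist was not tested.

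Over control set 1 the median log2 FC was -0.63 for the members and 0.01 for all 12643 genes. Groups did not overlap for 3 members, all below, beside 34.5% of all genes. Members past the threshold numbered 0 in edgeR beside 0.0475%, 1 in DESeq2 (Nr1d2) beside 3.49% and 3 by the exact test (Nr1d2, Arntl and Per3) beside 3.64%, and 7 had an unadjusted p under 0.05 beside 29.5%. With all 15 libraries in 1 fit Nr1d2 was past it, at -1.08, beside 2.40% of all genes. The 6 genes behind the share in edgeR became 0 to 152 with each mouse left out, and members stayed at 0.

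Among the other clock genes 0 of 41 passed in edgeR, 4 in DESeq2 (Cipc, Cry1, Npas2 and Prkaa2) and 3 by the exact test (Cipc, Cry1 and Npas2), and 13 had an unadjusted p under 0.05. The shares of all genes were 0.0475%, 3.49%, 3.64% and 29.5%, in that order. Cipc, which encodes an inhibitor of CLOCK and is listed in the tables as 2310044G17Rik, had a log2 FC of -0.75 (SE 0.13, adjusted p 0.01997), lower in 3 of 3 D26 libraries. Prkaa2 was at -0.58 (SE 0.15, adjusted p 0.0511) and Sirt1, a deacetylase that acts on clock proteins, at -0.45 (SE 0.13, adjusted p 0.0697), both lower in 3 of 3. Tsc22d3, a glucocorticoid target also called GILZ, was at 0.47 (SE 0.17, adjusted p 0.117) with groups that overlapped, and at -0.20 over control set 2. Over that set Cipc was at -0.05.

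In Irf1-/- mice, the D26 colon differed from the untreated colon by log2 FC between -0.25 and 0.55 in the clock members. Clock was the only member whose groups did not overlap, at a log2 FC of -0.23 (SE 0.08), all D26 libraries below. Dbp had 0.55 (SE 0.31), Per1 0.42 (SE 0.34), Per3 0.33 (SE 0.19), Tef 0.31 (SE 0.20), Per2 0.26 (SE 0.23), Arntl -0.25 (SE 0.16), Nr1d1 0.18 (SE 0.14), Nr1d2 0.09 (SE 0.12) and Cry2 0.06 (SE 0.13). Over fits that each lacked 1 mouse, the values spanned -0.47 to -0.13 for Arntl, -0.29 to -0.16 for Clock, 0.01 to 0.72 for Per1, -0.06 to 0.47 for Per2, 0.18 to 0.51 for Per3 and -0.08 to 0.15 for Cry2. The rest spanned 0.04 to 0.28 for Nr1d1, -0.04 to 0.21 for Nr1d2, 0.29 to 0.85 for Dbp and 0.17 to 0.51 for Tef. Per2 and Cry2 took the other sign without D26 mouse 3, and Nr1d2 without D26 mouse 2. Without D26 mouse 1, the library low in Xist, Dbp was at 0.81 (SE 0.26), Per1 at 0.72 (SE 0.27), Per3 at 0.51 (SE 0.14), Tef at 0.51 (SE 0.14) and Arntl at -0.47 (SE 0.09). In this group that mouse had the lowest Dbp, Tef and Per3 and the highest Arntl.

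The members' median log2 FC was 0.22 beside 0.01 for all 12692 genes. The 1 member without overlap stands beside 25.1% of all genes, and 1 member (Clock) had an unadjusted p under 0.05 beside 18.6%. Past the threshold were 0 members in edgeR beside 0.252%, 0 in DESeq2 beside 1.74% and 0 by the exact test beside 1.96%. The 32 genes behind the share in edgeR became 0 to 61 with each mouse left out, and members stayed at 0. Of 42 other clock genes 0 passed in edgeR, DESeq2 or the exact test, and 7 had an unadjusted p under 0.05. Klf10, a Krüppel-like factor under clock control, was at 0.56 (SE 0.12, adjusted p 0.0468) and Csnk1e, the casein kinase that marks PER proteins for breakdown, at 0.29 (SE 0.09, adjusted p 0.118), both higher in 3 of 3 D26 libraries. Rorb, a nuclear receptor that activates through ROR elements, was at -0.56 (SE 0.18, adjusted p 0.136), lower in 3 of 3, and Crebbp, a histone acetyltransferase, at 0.14 (SE 0.06, adjusted p 0.302), higher in 3 of 3. Rorb was at 5.38, 6.90 and 5.96 CPM in untreated and at 3.40, 4.18 and 4.77 CPM in D26 Irf1-/- mice. It met the authors' filter of 5 CPM in at least 3 libraries through the untreated group alone, which favours a lower D26 value.

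Between treated genotypes, Irf1-/- colon had less Arntl and more Nr1d2 than B6 colon in every library. The log2 FC was -1.44 for Arntl (SE 0.29) and 1.05 for Nr1d2 (SE 0.19). Dbp had 1.11 (SE 0.62), Tef 0.81 (SE 0.35), Per3 0.77 (SE 0.26), Per2 0.62 (SE 0.27), Nr1d1 0.53 (SE 0.31), Per1 0.27 (SE 0.34), Clock 0.15 (SE 0.13) and Cry2 -0.24 (SE 0.13), all with groups that overlapped. This comparison uses neither B6 control set, but the D26 groups were deposited in different tables. Whether a difference like the one between the sets lies between them was not tested. With each mouse left out in turn, the range was -1.72 to -1.20 for Arntl, 0.03 to 0.25 for Clock, -0.14 to 0.57 for Per1, 0.31 to 0.88 for Per2, 0.55 to 1.08 for Per3 and -0.38 to -0.16 for Cry2. The remaining members ran from 0.25 to 0.99 for Nr1d1, 0.92 to 1.29 for Nr1d2, 0.72 to 2.51 for Dbp and 0.53 to 1.35 for Tef. The ends for Dbp are those without D26 B6 mice 2 and 3.

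With GC content corrected, Arntl was at -1.44 (SE 0.29), Nr1d2 at 0.83 (SE 0.21) and Dbp at 1.33 (SE 0.61). Cry2 was at -0.10 (SE 0.11), Per1 at 0.44 (SE 0.33), Nr1d1 at 0.70 (SE 0.29), Per2 at 0.75 (SE 0.26), Per3 at 0.86 (SE 0.26) and Tef at 0.92 (SE 0.34). Clock took the other sign at -0.07 (SE 0.11). Without the 3 libraries low in Xist, chosen after seeing the data and leaving 1 B6 library assumed to vary like the other groups, Arntl was at -0.81 (SE 0.17), Nr1d2 at 0.80 (SE 0.14), Clock at 0.52 (SE 0.13), Dbp at 0.22 (SE 0.14), Tef at 0.32 (SE 0.13) and Nr1d1 at 0.01 (SE 0.16). Without those libraries all 10 members kept their sign, and Arntl, Nr1d2, Tef, Per2, Per3, Dbp and Nr1d1 were nearer to 0.

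For treated genotypes the members' median was 0.58 beside -0.01 for all 12483 genes. Groups did not overlap for 2 members, 1 above and 1 below, beside 27.5% of all genes. In edgeR 0 members were past the threshold beside 0.385%, with 1 in DESeq2 (Nr1d2) beside 2.16% and 2 by the exact test (Arntl and Nr1d2) beside 2.14%, and 5 had an unadjusted p under 0.05 beside 22.0%. With all 15 libraries in 1 fit, Arntl and Nr1d2 were past it, at -1.42 and 1.07, beside 1.94% of all genes.

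Other clock genes past the threshold numbered 0 of 41 in edgeR, 4 in DESeq2 (Npas2, Prkaa2 and Sirt1 among them) and 3 by the exact test (Npas2, Prkaa2 and Sirt1), and 12 had an unadjusted p under 0.05. For all genes the shares were 0.385%, 2.16%, 2.14% and 22.0%, in that order. Npas2 had a log2 FC of -0.996 (SE 0.18, adjusted p 0.0318), lower in 3 of 3 Irf1-/- libraries. Sirt1 at 0.61 (SE 0.11, adjusted p 0.0322) and Prkaa2 at 0.75 (SE 0.15, adjusted p 0.0435) were higher in 3 of 3. Tsc22d3 was at -0.40 (SE 0.14, adjusted p 0.159), with groups that overlapped. Without the libraries low in Xist, Npas2 was at -0.58.

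**Figure D3:**
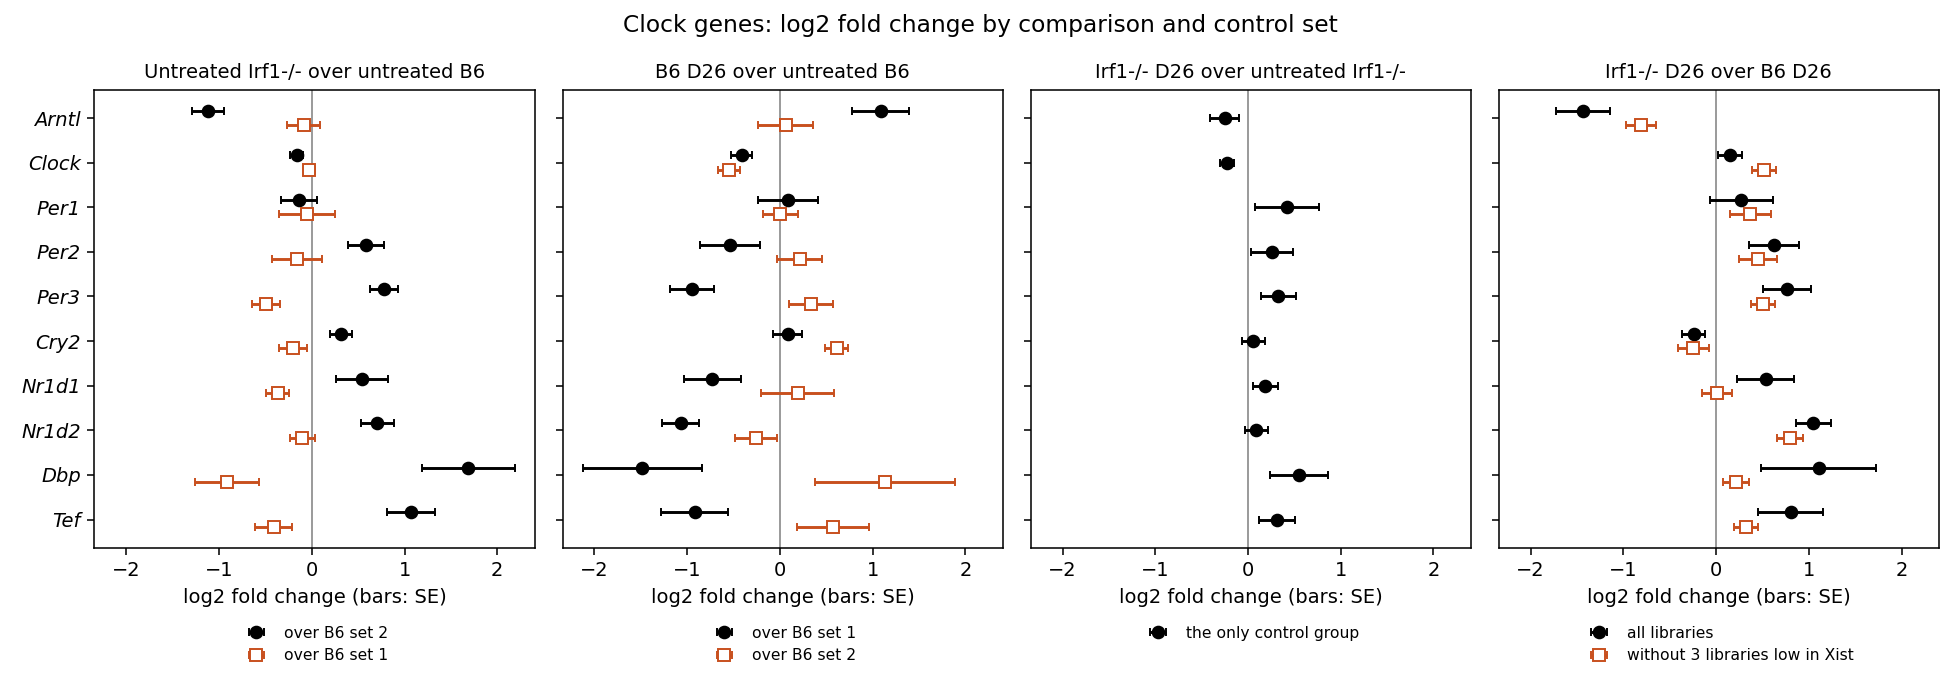
Log2 FC of the 10 clock genes (points) with the SE of the fit (bars) in 4 comparisons of 3 mice a group, with open squares for the other B6 control set or, on the right, for the fit without the 3 libraries low in Xist. Dbp lies at 1.69 over control set 2 and at -0.92 over control set 1 for untreated Irf1-/- mice, and at -1.49 over set 1 and 1.13 over set 2 for D26 B6 mice.

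The control sets, both untreated B6, differed most in Dbp among the 10 members, with set 2 the lower. Set 2 had a log2 FC over set 1 of -2.60 for Dbp (SE 0.51), -1.48 for Tef (SE 0.29), -1.27 for Per3 (SE 0.14), -0.91 for Nr1d1 (SE 0.28), -0.80 for Nr1d2 (SE 0.20), -0.74 for Per2 (SE 0.31) and -0.52 for Cry2 (SE 0.17), and of 1.03 for Arntl (SE 0.24), 0.14 for Clock (SE 0.07) and 0.09 for Per1 (SE 0.25). When mice were left out singly, the ranges were 0.81 to 1.34 for Arntl, 0.10 to 0.17 for Clock, -0.20 to 0.44 for Per1, -1.06 to -0.50 for Per2, -1.41 to -1.12 for Per3 and -0.67 to -0.33 for Cry2. The others had -1.41 to -0.65 for Nr1d1, -1.08 to -0.62 for Nr1d2, -3.54 to -2.17 for Dbp and -1.90 to -1.24 for Tef. Dbp, Tef and Per3 were below and Arntl and Clock above in all libraries, 5 members without overlap beside 21.4% of all genes. The members' median was -0.77 beside -0.00 for all 12417 genes.

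Per3 was the 1 member past the threshold in edgeR, beside 0.0644% of all genes. It was not past it without mouse 2 of set 1 (log2 FC -1.12), without mouse 3 of set 1 (-1.29) or without mouse 2 of set 2 (-1.18), nor with all 15 libraries in 1 fit or with the replicate block and GC correction together, and in these fits 4, 3, 8, 6 and 5 genes of all were past it. DESeq2 put 1 member past it (Per3) beside 1.16% and the exact test 5 (Per3, Dbp, Tef, Nr1d2 and Arntl) beside 1.30%, and 8 had an unadjusted p under 0.05 beside 17.2%. With the replicate number as a block, Per3, Dbp and Arntl were past it, at -1.27, -2.77 and 1.04, beside 0.105% of all genes.

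Between the control sets, 0 of 39 other clock genes passed in edgeR, 5 in DESeq2 (Cipc, Hlf, Tsc22d3, Fkbp5 and Lonrf3) and 6 by the exact test (those 5 and Sgk1), and 11 had an unadjusted p under 0.05. All genes had shares of 0.0644%, 1.16%, 1.30% and 17.2%, in that order. Cipc was at -0.68 (SE 0.11, adjusted p 0.0261), lower in 3 of 3 libraries of set 2, and Lonrf3, a ubiquitin ligase of the RING family, at 0.75 (SE 0.15, adjusted p 0.0596), higher in 3 of 3. Wdr5 was at 0.19 (SE 0.08, adjusted p 0.251), higher in 3 of 3, and Btrc, which sends PER proteins to the proteasome, at -0.15 (SE 0.10, adjusted p 0.467), with groups that overlapped.

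The difference between the D26 responses of Irf1-/- and B6 (set 1) mice was fitted as an interaction over 12 libraries. Its log2 value, positive where the Irf1-/- response was the higher, was 2.05 for Dbp (SE 0.83), 1.28 for Per3 (SE 0.35), 1.24 for Tef (SE 0.47), 1.17 for Nr1d2 (SE 0.26), 0.92 for Nr1d1 (SE 0.38), 0.80 for Per2 (SE 0.46) and -1.34 for Arntl (SE 0.40). Per1 had 0.34 (SE 0.54), Clock 0.19 (SE 0.15) and Cry2 -0.02 (SE 0.22). With control set 2 in place of set 1, Dbp was at -0.56 (SE 0.94) and Tef at -0.24 (SE 0.51), with the other sign, Per3 and Nr1d1 were at 0.01 (SE 0.34 and 0.49), Nr1d2 at 0.36 (SE 0.30) and Arntl at -0.30 (SE 0.39). Cry2 was then at -0.54 (SE 0.19), Clock at 0.33 (SE 0.15), Per1 at 0.43 (SE 0.45) and Per2 at 0.06 (SE 0.39). With set 2 and GC content corrected, a fit added after seeing the data, Cry2 was at -0.41 (SE 0.18), Clock at 0.10 (SE 0.13), Nr1d2 at 0.14 (SE 0.33) and Dbp at -0.36 (SE 0.92).

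With GC content corrected, the interaction was 2.25 (SE 0.81) for Dbp, 0.96 (SE 0.28) for Nr1d2 and -1.36 (SE 0.40) for Arntl, and Clock and Cry2 took the other sign at -0.02 (SE 0.13) and 0.09 (SE 0.21). Without the libraries low in Xist, which leaves D26 B6 mouse 3 as the lone D26 B6 sample, it was 1.14 (SE 0.61) for Dbp, 0.91 (SE 0.24) for Nr1d2 and -0.71 (SE 0.32) for Arntl. Clock was then at 0.55 (SE 0.10), Per3 at 1.01 (SE 0.27), Tef at 0.74 (SE 0.36), Per2 at 0.63 (SE 0.52), Per1 at 0.43 (SE 0.57), Nr1d1 at 0.39 (SE 0.25) and Cry2 at -0.03 (SE 0.29). Fits without 1 mouse at a time ran from -1.64 to -1.10 for Arntl, 0.06 to 0.28 for Clock, -0.08 to 0.62 for Per1, 0.47 to 1.11 for Per2, 1.05 to 1.57 for Per3 and -0.22 to 0.12 for Cry2. For the rest they were 0.62 to 1.36 for Nr1d1, 1.03 to 1.398 for Nr1d2, 1.64 to 3.43 for Dbp and 0.95 to 1.77 for Tef.

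The members' median interaction was 0.86 beside 0.01 for all 12483 genes. Past the threshold were 0 members in edgeR beside 0.0160% and 1 in DESeq2 (Nr1d2) beside 0.601%, and 6 had an unadjusted p under 0.05 beside 16.9%. Other clock genes past it numbered 0 of 41 in edgeR and 0 in DESeq2, with 12 at an unadjusted p under 0.05. Npas2 was at -1.13 (SE 0.32, adjusted p 0.118), Ep300, a histone acetyltransferase that works with CLOCK, at 0.34 (SE 0.12, adjusted p 0.179), Gsk3b, a kinase of several clock proteins, at 0.24 (SE 0.09, adjusted p 0.213) and Tsc22d3 at -0.56 (SE 0.26, adjusted p 0.293). With control set 2, Npas2 was at -0.29 and Tsc22d3 at 0.12.

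Markers of cell types in the tissue were set beside these values. Of the colon epithelium list 10 of 10 genes were in all tables, Muc2 was the most abundant and none was at 0, and the summed level was 6383, 6233 and 6974 CPM in control set 1, 7208, 5885 and 7859 in set 2, 8114, 8051 and 8372 in untreated Irf1-/-, 6959, 11401 and 9394 in D26 B6 and 8318, 8590 and 8818 in D26 Irf1-/- mice. Of the leukocyte list 8 of 10 were present (Cd3e and Cd8a in no table), Lyz2 was the most abundant, and the sum was 448, 386 and 281 CPM in set 1, 285, 331 and 248 in set 2, 281, 361 and 327 in untreated Irf1-/-, 393, 561 and 449.5 in D26 B6 and 474, 483 and 478 in D26 Irf1-/- mice. All D26 Irf1-/- libraries thus lay above all untreated libraries in the leukocyte sum, and all D26 B6 libraries above all of control set 2. In the epithelium sum all untreated Irf1-/- libraries lay above all 6 untreated B6 libraries through Muc2, since the rest of the list summed to 4305 to 4624 CPM in untreated Irf1-/- mice, 4555 to 5253 in set 1 and 3830 to 5128 in set 2. The part of leukocytes or epithelium in the clock values was not tested, neither for D26 mice nor between the untreated genotypes.

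Smooth muscle markers, 7 of 7 in all tables with Myh11 the most abundant, summed to 8125, 8082 and 7738 CPM in set 1, 7329, 7203 and 7966 in set 2, 7426, 6909 and 8898 in untreated Irf1-/-, 8167, 8138 and 7896 in D26 B6 and 7194, 7713 and 8627 in D26 Irf1-/- mice, and all groups overlapped. Of the enteric neuron and glia list 3 of 8 were in all tables, Uchl1 the most abundant (Gfap in some, and Elavl4, S100b and Sox10 among those in none), and the sum was 30.6, 39.6 and 30.1 CPM in set 1, 23.5, 19.0 and 25.3 in set 2, 22.4, 24.0 and 27.6 in untreated Irf1-/-, 25.5, 23.6 and 25.3 in D26 B6 and 23.4, 32.4 and 30.4 in D26 Irf1-/- mice. Of the fat cell list 2 of 6 were present, Car3 the most abundant (Adipoq, Plin1, Cidec and Lep in no table), and the sum was 47.6, 55.3 and 40.5 CPM in set 1, 69.8, 60.4 and 61.4 in set 2, 53.3, 61.8 and 42.6 in untreated Irf1-/-, 38.2, 53.5 and 57.9 in D26 B6 and 38.4, 27.4 and 32.3 in D26 Irf1-/- mice. Control set 1 was above control set 2 in neuron and glia markers and, through Car3 alone, below it in the fat sum in every library, and their part in the clock differences between the sets was not tested. In neuron and glia markers set 1 was also above every D26 B6 and every untreated Irf1-/- library. In the fat sum all D26 Irf1-/- libraries were below all untreated libraries, again through Car3 alone. The part of these in the clock values of the B6 response, of the untreated genotypes over set 1 and of the Irf1-/- response was not tested either.

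Promoter windows from 250 bases before to 50 after a start (RefSeq, GRCm38.p6) were found for 9 of the 10 members, 14 windows in all, and not for Per2. They were searched on both strands for the E-box CACGTG bound by CLOCK and its partner, for the D-box TTATGTAA or TTACGTAA bound by DBP and TEF, and for the ROR element bound by NR1D1 and NR1D2. The E-box is in 7.15% of 32851 windows of all genes, the D-box in 1.06% and the ROR element in 0.384%. In the members 5 windows of 4 genes held a match: an E-box in Per1 and in both windows of Tef, a pair of D-boxes in Per3 and a ROR element in Arntl. Sequences around these matches are shown because they hold the letters through which the loop's proteins are known to act. Tef and Arntl, each with a match, varied in opposite directions over the 15 libraries (r -0.913). Dbp, with no match in its window, had an r of -0.910 with Arntl, and Per1, with an E-box, one of -0.276. Whether the matches bear on the levels was not tested. The matches are in capitals, 5′ to 3′ on the strand of the gene.

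Per1, chr11:69098753-69098818, plus strand, E-box 166 bases before the start: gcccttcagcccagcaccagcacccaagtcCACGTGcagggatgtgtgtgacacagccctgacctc
Tef, chr15:81802516-81802581, plus strand, E-box 127 bases before the start: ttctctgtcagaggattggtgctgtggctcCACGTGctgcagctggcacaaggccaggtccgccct
Tef, chr15:81811246-81811311, plus strand, E-box 138 bases before the start: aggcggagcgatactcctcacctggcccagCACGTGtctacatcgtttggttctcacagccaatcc
Per3, chr4:151044786-151044900, minus strand, D-boxes 205 and 158 bases before the start: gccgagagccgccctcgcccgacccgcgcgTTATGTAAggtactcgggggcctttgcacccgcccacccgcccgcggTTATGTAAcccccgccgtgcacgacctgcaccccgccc
Arntl, chr7:113207529-113207555, plus strand, ROR element from the 27th base after the start: gaaggcagAAAGTAGGTCAgggacgga

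A match is a run of letters and not a measured site, and a window without one says only that these letters are not in it.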

How the data were processed

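Total RNA of 15 distal colons was sequenced by the study after rRNA depletion. By the submitters' processing notes, reads were mapped to mm9 with TopHat2 2.0.9 and Bowtie 1.0.0 and counted with featureCounts. The authors deposited read counts per gene, not normalised, in 3 tables of 12643, 12588 and 12692 genes that reach 5 CPM in at least 3 libraries. Their 36 per-sample columns of scaled values, and their columns of log fold changes, p-values and dispersions, were not used. Depth was 22266607 to 22869853 counts per library. The untreated Irf1-/- libraries stand in 2 tables and were used once per fit.

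Counts were scaled with TMM and fitted by the quasi-likelihood model of edgeR 4.0.16 in R 4.3.3 over all genes shared by the tables of a comparison, with Benjamini-Hochberg adjustment over them. These p-values set the difference between groups against the spread between 3 mice a group, estimated with the help of all genes. They do not cover a difference between sets of mice like the one between the B6 control sets. The members and lists were chosen with earlier results of these data known. Named were the 10 members, in each comparison the gene of smallest p of each of 4 other clock lists (up to 4 past the threshold), the 5 genes with the highest r of log2 CPM (prior count 2) with Dbp and with Arntl, and Irf1. Genes counted by DESeq2, by the exact test or without a library were named after their values were seen. Symbols were matched through reference tables, which also give GC content for 99.3% of shared genes, and transcript length.

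Results were recomputed with RLE size factors, with DESeq2 1.42.0 (Wald test), with the exact test of edgeR, with a filter of 10 CPM, with 15 libraries fitted together, with a block for the replicate number, with a lowess correction of each library on GC content (span 0.3), with block and correction together, with the other B6 control set, at an adjusted p under 0.05 and with each library left out in turn. Leaving out the libraries under 100 CPM of Xist, and the GC correction together with the other B6 control set, were chosen after seeing the data. The fits were tested on simulated data. Python 3.11.15, numpy 2.4.6, pandas 2.3.3 and matplotlib 3.10.9 were used.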

Additional observations from a re-analysis of the deposited data

Results flagged for a closer look

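In 3 clock genes every D26 B6 library lay below the mean log2 value of control set 1 and every D26 Irf1-/- library above the mean log2 value of untreated Irf1-/- mice, and this opposition was not tested as such. The 3 are 1 of 10 members and 2 of 41 other clock genes (4.88%) screened for opposite deviations in either direction. Of all 12483 genes, 855 (6.85%) also had such deviations, a larger share than that of the other clock genes. In the direction of these 3 genes alone, 396 of all genes (3.17%) had them. The share of the members rests on 1 gene, and no excess of clock genes is read from these shares. Nr1d1 deviated by -0.83, -1.61 and -0.12 log2 units in the 3 D26 B6 mice and by 0.02, 0.07 and 0.45 in the 3 D26 Irf1-/- mice, with a fitted difference between the responses of 0.92. Bhlhe41, a repressor of E-box genes, deviated by -1.14, -1.07 and -0.04 and by 0.04, 0.55 and 0.53, with a difference of 1.02 (adjusted p 0.238 in edgeR). Ciart, a repressor of CLOCK and its partner listed as Gm129, deviated by -1.57, -2.46 and -0.37 and by 0.01, 0.69 and 1.25, with a difference of 1.99 (adjusted p 0.195 in edgeR). Several of these deviations are near 0. For Bhlhe41 and Ciart the lowest D26 Irf1-/- library (5.82 and 4.14 CPM) is below the mean CPM of untreated Irf1-/- mice (5.83 and 4.41). With control set 2 the difference for Nr1d1 was 0.01. Without the libraries low in Xist, D26 B6 mice 1 and 2 and D26 Irf1-/- mouse 1, the difference for Nr1d1 over control set 1 was 0.39. That fit leaves D26 B6 mouse 3 alone in its group. Bhlhe41 and Ciart are not in the table of control set 2, and genes entered a table at 5 CPM in at least 3 libraries. Both lie near that limit. Bhlhe41 was at 7.13, 10.2 and 7.10 CPM in control set 1 and at 3.65, 3.83 and 7.78 CPM in D26 B6 mice. Ciart was at 3.43, 10.6 and 8.03 CPM and at 2.24, 1.20 and 5.12 CPM, with 27 counts in D26 B6 mouse 2. Genes this low enter more readily where a group is high, so the filter favours such a difference. Groups of 3 mice were not tested for single outlying libraries.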

How the results depend on the processing

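Of 208 recalculated counts of clock genes past the threshold, 164 were 0 where the reported count is also 0, the lowest a count can be, so they say little on stability. From 0, 29 went up. Log2 FC of members moved by less than the spread between mice in 918 of 980 values, and 48 had another sign, 14 of them among 30 with the other B6 control set and 7 among 20 with that set and GC correction, a setting added after seeing the data. For untreated Irf1-/- against control set 2, the members past the threshold were 0, and 2 in DESeq2, 4 by the exact test, 2 with the replicate block, 4 with the block and GC correction, 2 at an adjusted p under 0.05, and 0 to 3 with each mouse left out, beside 51, 107, 125, 44, 51, 93 and 26 to 64 of all genes in that order. Other clock genes there were 0, and 1 by the exact test, 1 at an adjusted p under 0.05 and 0 to 1 with each mouse left out. For D26 against untreated B6, members were 0, and 1 in DESeq2, 3 by the exact test, 1 with 15 libraries in 1 fit and 2 at an adjusted p under 0.05, and other clock genes 0, and 4, 3, 1 and 3 in the same order, beside 6, 441, 460, 297 and 430 of all genes, and 0 to 152 with each mouse left out. For D26 against untreated Irf1-/-, clock genes stayed at 0 while all genes went from 32 to 221 in DESeq2, 249 by the exact test and 0 to 61 with each mouse left out. Between treated genotypes members were 0, and 1, 2, 2 and 2, and other clock genes 0, and 4, 3, 2 and 3, again in that order, beside 48, 270, 267, 240 and 184 of all genes, and 17 to 48 with each mouse left out. For control set 2 against set 1, the 1 member became 5 by the exact test, 0 with 15 libraries in 1 fit, 3 with the replicate block, 0 with the block and GC correction and 0 to 1 with each mouse left out, while all genes past it went from 8 to 161, 6, 13, 5 and 3 to 53. Other clock genes there went from 0 to 5 in DESeq2, 6 by the exact test and 1 at an adjusted p under 0.05, beside 144, 161 and 51 of all genes. For the difference between responses, 1 member passed in DESeq2, where all genes past it went from 2 to 75. In all of these the cause was not tested.

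With the other control set, log2 FC took the other sign for Wdr5 (0.0196) and Sgk1 (0.1004) between untreated genotypes, and for Tsc22d3 in the B6 response (-0.2044) and in the difference between responses (0.1205). With GC content corrected too, Tsc22d3 was at -0.1983 and 0.1021. The cause was not tested. Without the libraries low in Xist, chosen after seeing the data, 0 of 40 member values changed sign. Residuals of same-numbered mice correlated between -0.223 and 0.248, with no comparison in which all 3 were above 0.1, and the fits of the report have no block. The exact test gives no value for the difference between responses, and Rorb has none under the filter of 10 CPM or with 15 libraries in 1 fit. Depth limits little here, since the lowest value of a member, Dbp at 2.91 CPM, rests on 65 counts, while 3 mice a group and an unrecorded hour of collection limit all comparisons.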
